A study of Mus musculus with 12 samples.

Results

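The neurotrophin genes Bdnf, Ntf3, Ntrk2, Ntrk3 and Ngfr, together with the sorting receptor gene Sort1 and the secreted-protein gene Vgf, were followed in RNA sequencing of mouse medial prefrontal cortex. The 7 genes were taken by name from a table of 55678 gene names, and all transcript entries of a name were summed. Mice were of the inbred strain BALB/cCrSlc, called BALB/c here, or C57BL/6JmsSlc, called B6, and were either handled (controls) or given chronic restraint stress (CRS), in which a mouse is confined to a restrainer in its home cage, here for 6 h a day over 21 days. Each of the 4 groups held 3 animals aged 9 to 10 weeks, 1 library per animal, named here by the animal number in the labels. Tissue came from a 1.5 mm punch taken once behavioural tests were finished. The labels name no transgene, and the sex of the animals was not given in the sources used here. The comparisons ask whether the genes of this system differ with CRS within a strain, between strains within a treatment, and in the size of the CRS effect between strains.

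Neurotrophins are secreted growth factors made as proneurotrophins and cut to mature dimers. Mature Bdnf binds TrkB (encoded by Ntrk2) and neurotrophin-3 (Ntf3) binds TrkC (Ntrk3), receptor tyrosine kinases that signal through Ras-MAPK, PI3K-Akt and phospholipase C gamma, whereas proneurotrophins bind p75NTR (Ngfr) together with sortilin (Sort1). In the cortex Bdnf is made mainly by excitatory neurons, its transcription depends on neuronal activity through several alternative promoters, and Ntrk2 yields a full-length kinase form and a truncated form without the kinase that is abundant in astrocytes.

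In GRCm38 coordinates with GENCODE M21 gene models, all 7 are protein-coding genes, and the spans given cover their exons and introns. Bdnf lies on the plus strand at chr2:109674700-109727007, Ntf3 on the minus strand at chr6:126101412-126166910, Ntrk2 on the plus strand at chr13:58806569-59133970 and Ntrk3 on the minus strand at chr7:78175959-78738012. Ngfr lies on the minus strand at chr11:95568818-95587735, Sort1 on the plus strand at chr3:108284082-108361511 and Vgf on the plus strand at chr5:137026392-137033351. Genes on the opposite strand overlap the spans of Bdnf (1 gene), Ntrk2 (3 genes), Ntrk3 (2 genes) and Sort1 (1 gene). Whether their exons overlap was not examined, and whether strand was used in quantification is not given in the sources used here. It is thus unknown whether values of these 4 genes include reads of their partners.

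RefSeq lists 7 start sites for Bdnf in GRCm38.p6, and the 100 bases before 3 of them are shown because Bdnf transcripts differ mainly in the start they use, which bears on the transcript entries described further on. Capitals mark a CRE-like element, the kind of site bound by the activity-dependent factor CREB. The windows are chr2:109674600-109674699 for start 1, chr2:109692336-109692435 for start 3 and chr2:109722821-109722920 for start 7, all on the plus strand and all free of M21 exons.
Bdnf start 1: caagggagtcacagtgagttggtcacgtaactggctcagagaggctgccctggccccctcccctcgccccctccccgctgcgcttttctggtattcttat
Bdnf start 3: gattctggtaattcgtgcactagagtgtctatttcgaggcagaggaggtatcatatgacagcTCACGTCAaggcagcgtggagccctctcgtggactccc
Bdnf start 7: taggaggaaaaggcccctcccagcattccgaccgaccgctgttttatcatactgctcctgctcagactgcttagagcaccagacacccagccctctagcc
In a search of both strands of the 250 bases before each start, the 8 letters TCACGTCA were found before start 3 alone among the 7 Bdnf starts, beginning 38 bases before it. The same letters occurred in 115 of 32851 promoter windows of that length (0.35%), the full element TGACGTCA in 1.55% and the CGTCA core, which lies within both, in 17.8%. A match of letters is a description and not a measured site. Windows were also listed for Ntf3, Ntrk2 and Ngfr, with neither 8-letter element in the bases searched.

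Expression was given as TPM (transcript abundance corrected for length and scaled to the same total in every library), so that levels can be compared between genes, while the number of reads behind a value is unknown and precision rests on the spread between the 3 animals. The number of genes at 1 TPM or more was 14805 to 15542 per library. Markers of excitatory cortical neurons summed to between 1198.5 and 2489 TPM and were thus abundant in every library. Markers of projection neurons of the striatum, a neighbouring region (8 genes, of which 0 were at 0 in any library), ranged far more widely, from 110.0 to 2769 TPM in sum. The striatal score, the mean log2(TPM + 1) of those 8 genes, was 7.71, 5.12 and 3.71 in B6 controls 2, 3 and 9, 7.37, 7.0 and 6.03 in B6 CRS 12, 13 and 14, 3.59, 4.78 and 3.34 in BALB/c controls 5, 9 and 10, and 3.42, 3.53 and 3.66 in BALB/c CRS 12, 13 and 15. All 3 B6 CRS libraries therefore lay above all 6 BALB/c libraries, and B6 control 9 lay within the BALB/c range. Markers of oligodendrocytes (8 genes) also ranged widely, from 485.0 to 9850 TPM in sum. Their score, computed likewise, was 7.44 to 9.33 in B6 controls and 7.51 to 9.03 in B6 CRS. It was 4.96 to 7.65 in BALB/c controls and 5.20 to 6.58 in BALB/c CRS. BALB/c CRS 12 stood apart in 18S ribosomal RNA (3.97% of TPM against 0.17% or less elsewhere). In bulk tissue, fewer cells of a type and less RNA per cell cannot be told apart.

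By mean TPM over the 12 libraries the order was Vgf (184.7), Ntrk2 (152.6), Sort1, Ntrk3 (35.4), Bdnf (12.4), Ntf3 (2.29) and Ngfr (0.47). Every step of that order held in 12 of 12 libraries except the first, where Vgf exceeded Ntrk2 in 10 of 12. Among the 16423 genes tested (at least 1 TPM in at least 3 libraries), mean levels stood at percentile 95.9 for Vgf, 94.9 for Ntrk2, 91.9 for Sort1, 75.8 for Ntrk3, 50.5 for Bdnf and 19.4 for Ntf3. Ngfr stayed below 1 TPM in all 12 libraries and was not tested with the others. TrkB transcripts thus exceeded those of its ligand Bdnf in every library.

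**Figure D1:**
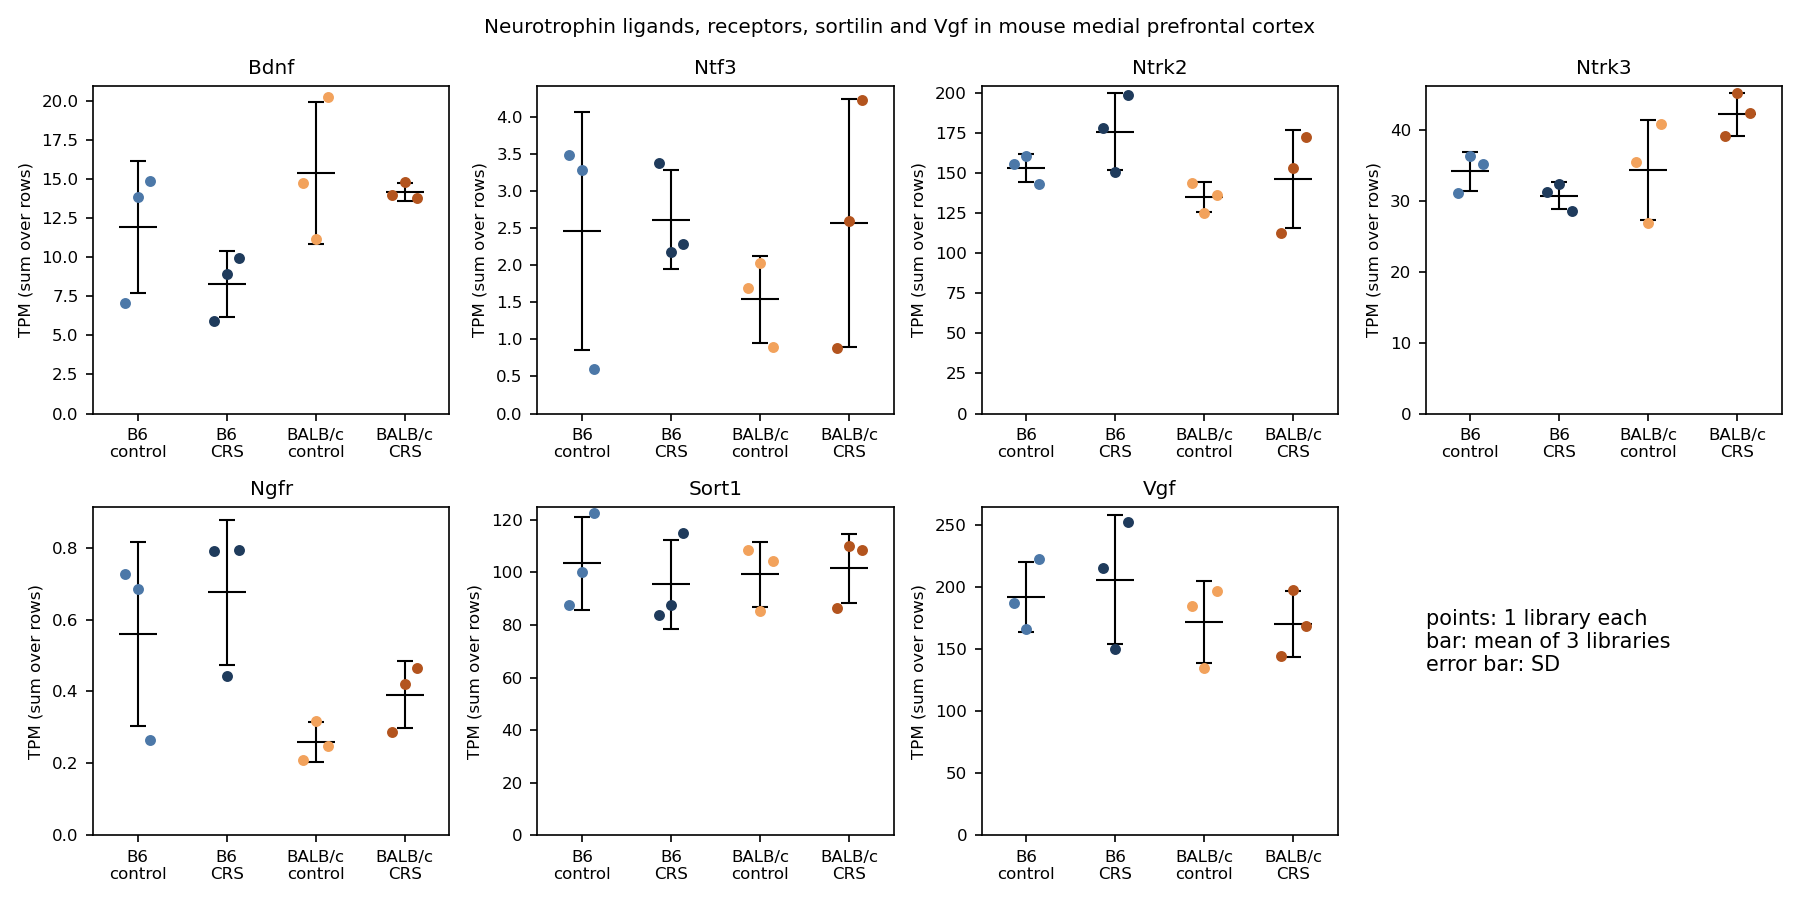
Level of each of the 7 genes in TPM (vertical axis, starting at 0) in the 4 groups; points are single libraries, bars the mean of 3 and error bars the SD. The BALB/c CRS points lie above the B6 CRS points for Bdnf and Ntrk3, and the other 5 genes overlap between those groups.

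Of the 6 genes tested, 0 passed an adjusted p of 0.05 (limma, Benjamini-Hochberg over all tested genes) in any of the 6 comparisons. For CRS against control the background was as low, at 0% of all tested genes in B6, 0.00609% in BALB/c, 0% for the difference between the strains' CRS effects and 0.00609% for the CRS effect averaged over strains. Between strains it was 4.73% in controls and 7.7% under CRS. At an unadjusted p under 0.05, 0 of the 6 passed for CRS in B6 (4.82% of all tested genes), CRS in BALB/c (3.03%), strains in controls (18.7%) and the averaged CRS effect (5.17%). Ntrk3 passed that level for the difference of CRS effects (2.7% of all), and Bdnf and Ntrk3 between strains under CRS (23.8%). The 3 libraries of one group lay wholly above or below those of the other for 0 of the 6 genes for CRS in B6 (8.33% of all), CRS in BALB/c (7.39%) and strains in controls (22.9%), and for 2 of the 6 between strains under CRS (29.3%).

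Bdnf, the main activity-dependent neurotrophin of the cortex, had 7.10, 13.8 and 14.9 TPM in B6 controls 2, 3 and 9 against 5.92, 8.94 and 9.96 TPM in B6 CRS 12, 13 and 14. In BALB/c it was at 14.8, 11.2 and 20.2 TPM in controls 5, 9 and 10 and at 14.0, 14.8 and 13.8 TPM in CRS 12, 13 and 15. The lowest 2 values of the series were in B6 CRS 12 and B6 control 2, the 2 libraries with the highest striatal scores, and the highest was in BALB/c control 10, which had the lowest score. Group means were 11.9 ± 4.23 (SD, n = 3) in B6 controls, 8.27 ± 2.10 in B6 CRS, 15.4 ± 4.56 in BALB/c controls and 14.2 ± 0.56 in BALB/c CRS.

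Within B6 the CRS and control values overlapped, and the log2(TPM + 1) difference for Bdnf was -0.45 (SE 0.27, 95% interval -1.03 to 0.14, adjusted p 1.00, limma). It was -0.76 without B6 control 2 and -0.25 without B6 CRS 12, and -0.07 with the striatal score as a covariate. Within BALB/c the groups also overlapped, with a difference of -0.07 (interval -0.66 to 0.51). The difference between these CRS effects was 0.37 (SE 0.38).

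Under CRS, the 3 BALB/c libraries lay above the 3 B6 libraries for Bdnf. The log2 difference was 0.74 (SE 0.27, interval 0.15 to 1.32, 1.67-fold on that scale, unadjusted p 0.0178), with an adjusted p of 0.117 in limma. Beside it, the 8 striatal markers summed to 866.5 to 2265 TPM in B6 CRS against 130.9 to 178.0 TPM in BALB/c CRS, and 7 of the 8 passed as lower in BALB/c (limma). Scores were 6.03 to 7.37 against 3.42 to 3.66 for the striatum, 5.81 to 6.39 against 6.80 to 6.97 for excitatory neurons (6 markers) and 7.51 to 9.03 against 5.20 to 6.58 for oligodendrocytes (8 markers). With the striatal score as a covariate the Bdnf difference was -0.23 (SE 0.24, adjusted p 0.753, limma). With the oligodendrocyte score it was 0.13 (SE 0.30), and with the astrocyte score 0.40 (SE 0.41). The excitatory neuron score was not fitted. Each of the fitted scores separated the strains under CRS without overlap. Strain and tissue composition therefore cannot be told apart in these fits, nor in those of other genes between strains under CRS. For Bdnf in controls the strains overlapped, with a difference of 0.36 (SE 0.27, adjusted p 0.517, limma). It was 0.06 without B6 control 2 and 0.56 without BALB/c control 9.

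Ntf3, the ligand of TrkC, was the lower of the ligand genes. It measured 3.49, 3.28 and 0.61 TPM in B6 controls, 3.38, 2.17 and 2.29 TPM in B6 CRS, 1.69, 2.03 and 0.89 TPM in BALB/c controls and 0.89, 2.59 and 4.22 TPM in BALB/c CRS, in the order of animals used above. It reached 1 TPM in 9 of 12 libraries, and every pair of groups compared overlapped. Its log2 differences were 0.19 (SE 0.42) for CRS in B6, 0.40 for CRS in BALB/c, -0.33 between strains in controls and -0.12 under CRS. Intervals were wide, reaching from -0.52 to 1.32 for CRS in BALB/c.

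Ntrk2, which encodes the Bdnf receptor TrkB, had 155.4, 160.4 and 143.4 TPM in B6 controls against 178.1, 151.0 and 198.9 TPM in B6 CRS. BALB/c controls had 143.7, 124.9 and 136.4 TPM and BALB/c CRS libraries 112.9, 153.1 and 172.6 TPM. B6 CRS 14 was highest and BALB/c CRS 12 lowest, and all compared groups overlapped. The largest log2 difference for Ntrk2 was -0.28 between strains under CRS (SE 0.15, interval -0.60 to 0.05, adjusted p 0.287, limma). In fits without 1 library it ran from -0.41 without BALB/c CRS 15 to -0.10 without BALB/c CRS 12. The latter is the library that stood apart in 18S ribosomal RNA. The CRS effects on Ntrk2 were 0.19 in B6 and 0.09 in BALB/c. With the astrocyte score as a covariate the difference under CRS between strains was 0.17 (SE 0.16). Astrocyte scores were 6.79 to 6.90 in B6 CRS and 6.23 to 6.61 in BALB/c CRS (8 markers).

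Ntrk3, which encodes TrkC, measured 31.1, 36.3 and 35.2 TPM in B6 controls, 31.2, 32.4 and 28.6 TPM in B6 CRS, 35.5, 26.8 and 40.8 TPM in BALB/c controls and 39.1, 45.2 and 42.4 TPM in BALB/c CRS. Under CRS every BALB/c library lay above every B6 library, and in the other comparisons the groups overlapped. The difference under CRS was 0.44 on the log2 scale (SE 0.14, interval 0.14 to 0.75, 1.36-fold, unadjusted p 0.00825), with an adjusted p of 0.0764 in limma.

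Under CRS Ntrk3 was the gene of the 6 nearest to the threshold, and 3 alternatives took it past. In limma its adjusted p was 0.0354 after median-of-ratios scaling, 0.0450 with mitochondrial RNAs, Bc1 and Rn18s left out and the rest rescaled, and 0.0491 when the fit held only the 2 CRS groups. In that last fit Bdnf passed as well (adjusted p 0.0404, limma). With the striatal score as a covariate the Ntrk3 difference was 0.21 (SE 0.21, adjusted p 0.737, limma), with the oligodendrocyte score it was 0.26 (SE 0.19), and with the astrocyte score it was 0.47 (SE 0.22). The CRS effect on Ntrk3 was -0.15 in B6 and 0.31 in BALB/c (SE 0.14 each), and the difference between them was 0.45 (SE 0.20, interval 0.02 to 0.89, unadjusted p 0.0418, adjusted p 1.00, limma). Without BALB/c control 9, the lowest of the 12 libraries for Ntrk3, the effect in BALB/c was 0.14 and the difference of effects 0.29. Without BALB/c control 10 they were 0.44 and 0.58. In controls the strain difference was -0.01.

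Ngfr, which encodes p75NTR, measured 0.73, 0.69 and 0.26 TPM in B6 controls, 0.79, 0.44 and 0.79 TPM in B6 CRS, 0.21, 0.32 and 0.25 TPM in BALB/c controls and 0.29, 0.42 and 0.47 TPM in BALB/c CRS. In a fit without a filter on low values (30737 genes) its log2 difference between strains was -0.30 in controls (SE 0.13, adjusted p 0.379, limma) and -0.26 under CRS (adjusted p 0.357, limma), with CRS effects of 0.11 and 0.14. All compared groups overlapped. At these levels log2(TPM + 1) understates proportional change, and to a lesser degree it does so at the few TPM of Ntf3.

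Sort1, the sortilin gene, was at 83.8 to 122.5 TPM over all libraries. Its group means were 103.5 ± 17.7 (SD, n = 3) in B6 controls, 95.5 ± 17.1 in B6 CRS, 99.3 ± 12.4 in BALB/c controls and 101.6 ± 13.2 in BALB/c CRS, and all groups overlapped. Log2 differences for Sort1 lay between -0.12 (CRS in B6) and 0.10 (strains under CRS) in the 4 comparisons of 2 groups.

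Vgf, a neuropeptide precursor whose transcription responds to neurotrophins and activity, had 186.9, 165.9 and 222.3 TPM in B6 controls against 215.2, 149.6 and 252.3 TPM in B6 CRS. It was at 184.1, 134.3 and 196.5 TPM in BALB/c controls and 144.5, 197.2 and 168.2 TPM in BALB/c CRS. The B6 CRS group held the highest value of the series and a value below all 3 B6 controls. Its log2 difference was 0.08 for CRS in B6 (interval -0.36 to 0.52), -0.01 for CRS in BALB/c (-0.45 to 0.44) and -0.25 between strains under CRS (SE 0.20, adjusted p 0.500, limma).

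**Figure D2:**
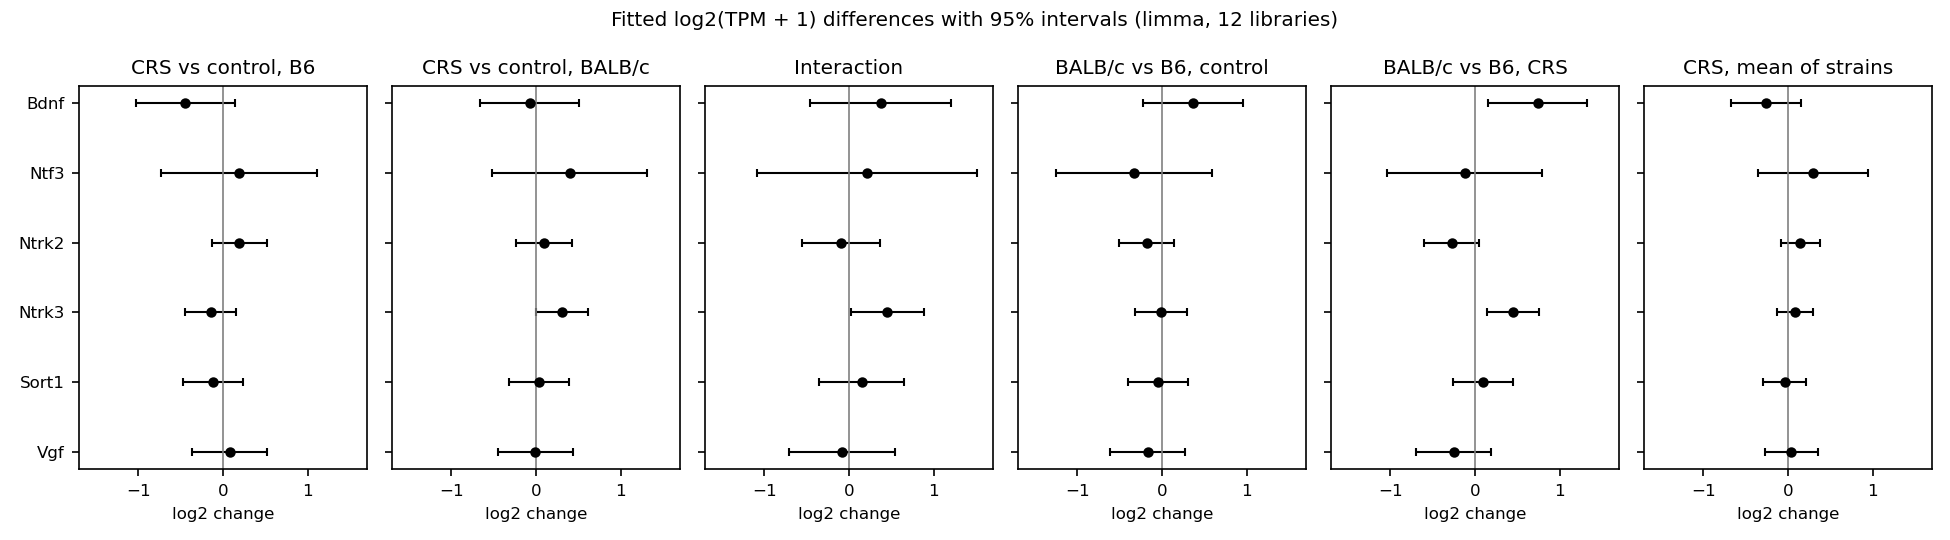
Fitted log2(TPM + 1) differences of the 6 tested genes (horizontal axis), with 95% intervals from limma over 12 libraries, 1 panel per comparison. The intervals that lie clear of 0 are those of Bdnf (0.15 to 1.32) and Ntrk3 (0.14 to 0.75) between strains under CRS, and of Ntrk3 for the difference between CRS effects (0.02 to 0.89) in the panel headed interaction.

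The deposited table lists Bdnf in 11 entries and Ntrk2 in 10, each naming the gene only, so the entries are numbered here by mean TPM (rows 1, 2 and so on in the plots) and none is tied to a promoter or an isoform. In M21, the 11 annotated Bdnf transcripts share 3626 bases, 92.9% of their median length, and a median of 83 bases is private to a transcript. The division of Bdnf reads among entries therefore rests on a small stretch of sequence. The 10 annotated Ntrk2 transcripts span 356 to 8744 bases, with 0 bases common to all of them.

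Bdnf entries 1 to 4 made up 90.6% to 100% of the gene's TPM in each library and were the 4 that passed the filter. Of these, 0 passed the adjusted threshold in any comparison (limma over 46000 entries, of which 0.0109% passed for CRS in B6, 0% for CRS in BALB/c, 1.69% between strains in controls, 2.08% under CRS, 0% for the difference of effects and 0.00435% for the averaged effect). Entry 1 measured 2.81, 8.20 and 6.24 TPM in B6 controls, 1.19, 3.48 and 2.72 TPM in B6 CRS, 6.20, 3.67 and 8.53 TPM in BALB/c controls and 4.48, 4.46 and 4.65 TPM in BALB/c CRS. B6 CRS 12 was the lowest and every BALB/c CRS library lay above every B6 CRS library. At the few TPM of entries 1 to 4, log2(TPM + 1) understates proportional change.

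The CRS effect in B6 on Bdnf entry 1 was -0.93 on the log2 scale (SE 0.37, unadjusted p 0.0296, adjusted p 1.00, limma), and -0.35 on entry 4 (SE 0.38), while that on entries 2 and 3 was 0.07 and 0.10. As a share of the gene, entry 1 held 39.5% to 59.3% in B6 controls and 20.0% to 38.9% in B6 CRS, and 32.8% to 42.2% in BALB/c controls and 30.1% to 33.8% in BALB/c CRS. Entries 1, 2 and 4 were higher in BALB/c than in B6 under CRS with no overlap, against 20.5% of all entries separated in that comparison, with differences of 0.74, 0.33 and 0.92 (adjusted p 0.396, 0.635 and 0.283, limma).

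Bdnf entry 2 had 1.44, 1.88 and 4.32 TPM in B6 controls against 4.82, 3.84 and 4.87 TPM in BALB/c controls, so that B6 control 9 alone reached the BALB/c range. The strain difference in controls was 0.72 (SE 0.27, adjusted p 0.293, limma) and 1.05 without B6 control 9 (adjusted p 0.0325, limma), the sole fit in which an entry of either gene passed. B6 control 9 was also the B6 library with the lowest striatal score. In BALB/c, entry 2 was at 3.36, 3.69 and 3.18 TPM under CRS, below all 3 controls (-0.32, adjusted p 1.00, limma), a separation seen for 8.52% of all entries.

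Ntrk2 entries 1 and 2 made up 84.3% to 96.2% of the gene. Entry 1 measured 92.4, 89.0 and 55.6 TPM in B6 controls, 102.6, 81.0 and 107.3 TPM in B6 CRS, 66.1, 52.0 and 56.1 TPM in BALB/c controls and 50.6, 63.2 and 76.6 TPM in BALB/c CRS. Entry 2 measured 43.1, 51.6 and 74.5 TPM in B6 controls, 53.4, 50.6 and 62.9 TPM in B6 CRS, 66.7, 54.2 and 67.1 TPM in BALB/c controls and 58.0, 69.2 and 69.0 TPM in BALB/c CRS. Under CRS entry 1 was lower in all BALB/c than in all B6 libraries, a comparison in which 20.5% of all entries were separated. Entry 2 overlapped.

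The strain difference under CRS was -0.61 for Ntrk2 entry 1 (SE 0.21, unadjusted p 0.0145, adjusted p 0.191, limma) and 0.23 for entry 2 (SE 0.18). The ratio of entry 1 to entry 2 was 2.14, 1.73 and 0.75 in B6 controls 2, 3 and 9, 1.92, 1.60 and 1.71 in B6 CRS, 0.99, 0.96 and 0.84 in BALB/c controls and 0.87, 0.91 and 1.11 in BALB/c CRS. It exceeded 1.5 in 5 of the 6 B6 libraries, and B6 control 9 had the lowest ratio of all 12. These 5 libraries were also the 5 with the highest striatal scores. The part of tissue composition in this ratio was not tested.

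**Figure D3:**
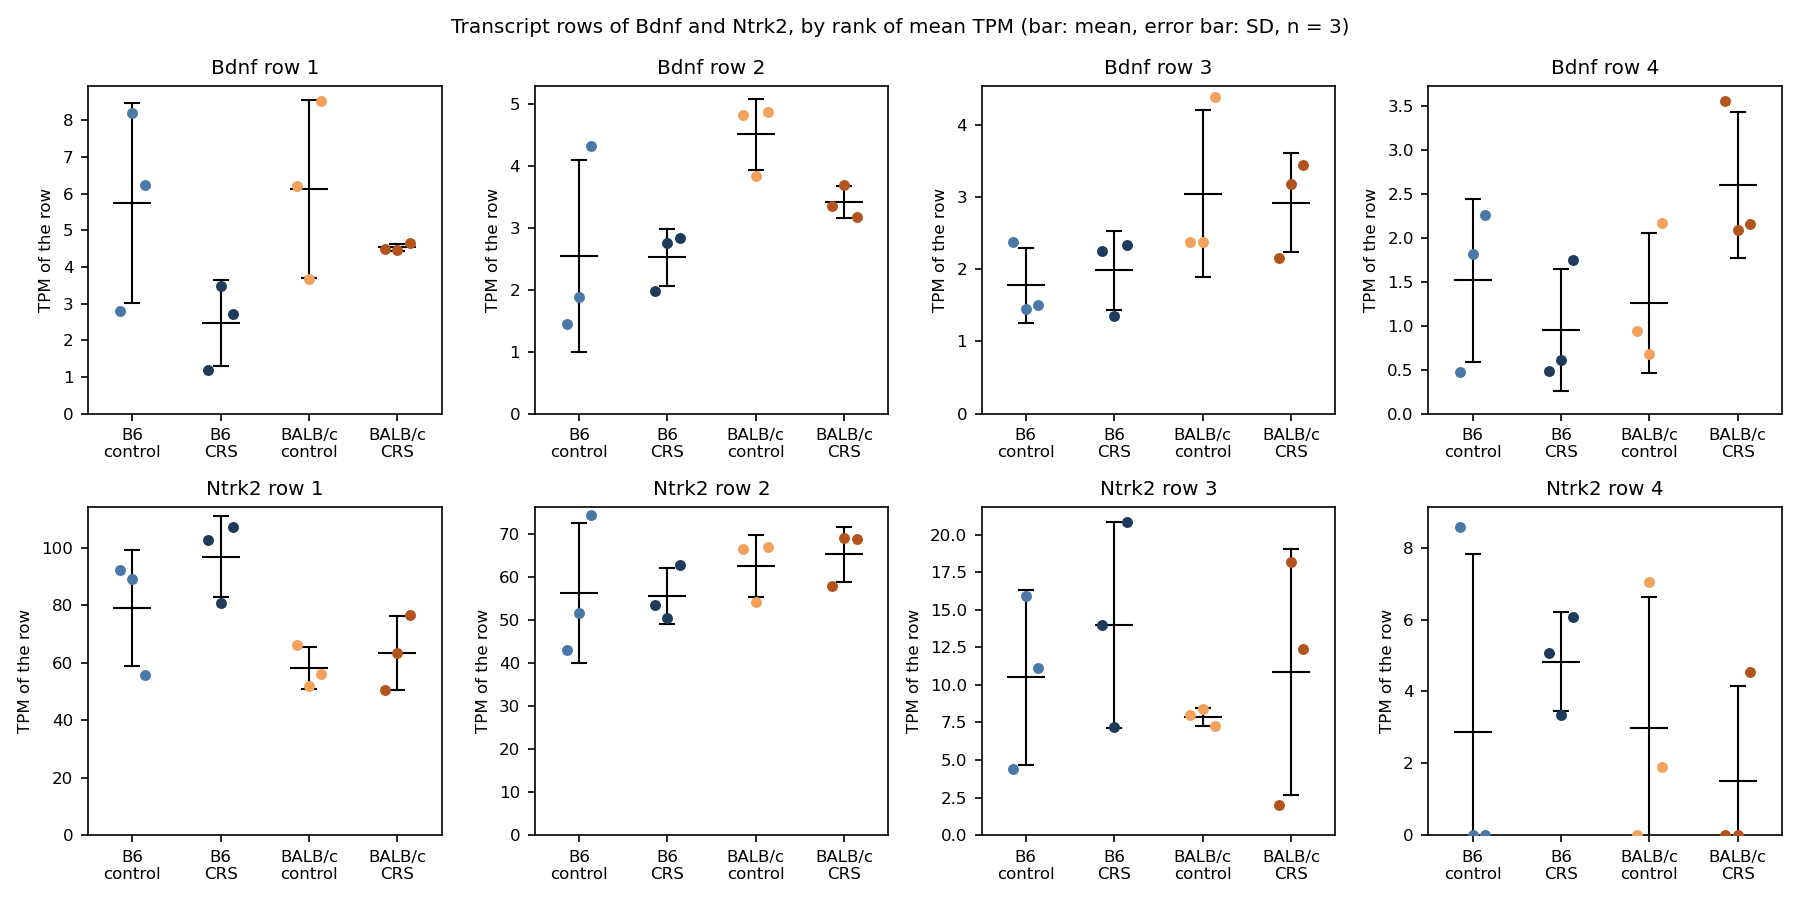
TPM (vertical axis, starting at 0) of the 4 most abundant transcript entries of Bdnf and of Ntrk2 in the 4 groups; points are libraries, bars the mean of 3 and error bars the SD. Ntrk2 entry 1 lies at 81.0 to 107.3 TPM in B6 CRS and at 50.6 to 76.6 TPM in BALB/c CRS.

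**Figure D4:**
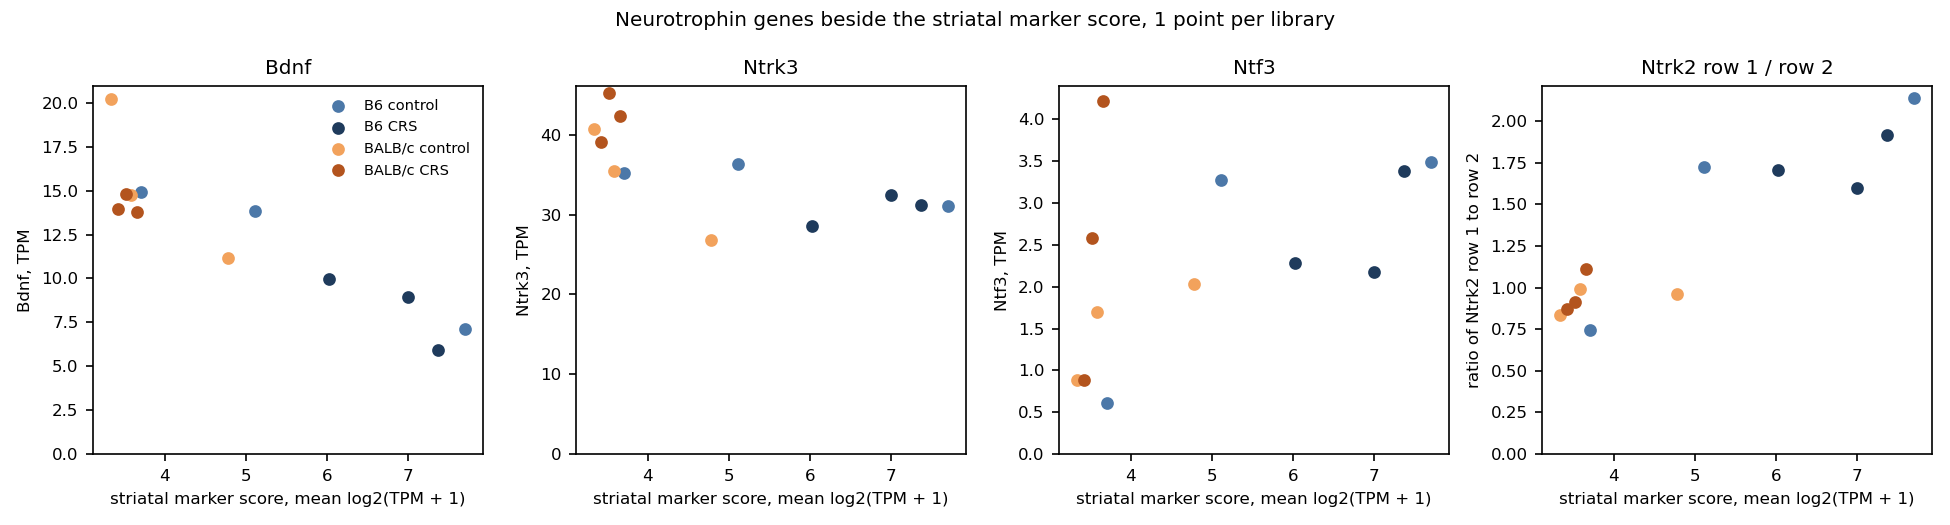
Neurotrophin genes and the ratio of Ntrk2 entries (vertical axes, starting at 0) against the striatal marker score, the mean log2(TPM + 1) of 8 genes, with 1 point per library coloured by group. The libraries with scores above 5 are all from B6, and Bdnf is lowest, at 5.92 and 7.10 TPM, in the 2 with the highest scores.

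Other genes of the pathway were followed in 8 lists of 114 genes, of which 110 were tested. For CRS against control, 0 of 110 passed in B6, in BALB/c, in the average over strains or in the difference of effects (limma). Between strains, 2 of 110 (1.82%, against 4.73% of all genes) passed in controls and 6 of 110 (5.45%, against 7.7%) under CRS. The median log2 change of the 110 was -0.07 in B6 and 0.03 in BALB/c for CRS, against 0 and 0.05 for all tested genes, and 0.0033 between strains under CRS against -0.06 for all.

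The 4 relatives of sortilin (Sorl1, Sorcs1, Sorcs2 and Sorcs3), the 38 tested Trk adaptors and signalling genes and the 12 partners of p75NTR gave 0 calls in any comparison. At an unadjusted p under 0.05 they gave 0 genes in either CRS comparison, and 0, 2 and 0 genes for the averaged CRS effect (5.17% of all genes). Between strains they gave 1 of 4, 5 of 38 and 2 of 12 genes in controls (18.7% of all genes) and 3 of 4, 3 of 38 and 3 of 12 under CRS (23.8%).

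Dense-core vesicles carry Bdnf and Vgf to release sites, and of 12 vesicle genes 3 passed between strains under CRS, where 7.7% of all genes did. Scg5, which encodes the chaperone 7B2 of prohormone convertase 2, was higher in BALB/c, at 437.9 to 478.8 TPM under CRS against 206.7 to 221.9 TPM in B6, which is 1.07 higher on the log2 scale (SE 0.12, adjusted p 0.000112, limma). In controls Scg5 was the sole vesicle gene past the threshold (1.18, adjusted p 4.15e-05, limma). Both Scg5 calls held in every alternative run, and its difference under CRS was 0.82 with the striatal score as covariate. Syt4, a synaptotagmin of dense-core vesicles, was higher in BALB/c under CRS by 0.61 (SE 0.14, adjusted p 0.0258, limma). Scg2, the granule protein secretogranin II, was lower (-0.66, SE 0.15, adjusted p 0.0223, limma). Fitted with the striatal score, the differences were 0.32 for Syt4 and -0.55 for Scg2 and neither passed (adjusted p 0.581 and 0.390, limma). With the astrocyte score they were 0.53 and -0.33 (adjusted p 0.479 and 0.674, limma), and with the oligodendrocyte score 0.53 and -0.60 (0.426 and 0.354). Leaving out single libraries also ended these calls, at adjusted p of up to 0.0985 for Syt4 and 0.0875 for Scg2 (limma).

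Of 10 tested genes of proneurotrophin processing, 1 passed (7.7% of all genes in that comparison), the carboxypeptidase E gene Cpe, which was lower in BALB/c under CRS (-0.34, SE 0.09, adjusted p 0.0459, limma). Leaving out any 1 of the 6 CRS libraries ended the Cpe call (adjusted p 0.0572 to 0.145, limma). The Cpe difference was -0.34 with the striatal score (SE 0.14, adjusted p 0.361, limma), -0.26 with the oligodendrocyte score (adjusted p 0.593, limma) and -0.15 with the astrocyte score (adjusted p 0.777, limma). With no filter on low values the adjusted p was 0.148, and with only the CRS groups in the fit it was 0.0759 (limma). Of 17 tested regulators of the Bdnf gene, 1 passed, again between strains under CRS and against the same 7.7%. Npas4, an activity-dependent transcription factor that binds Bdnf promoters, measured 14.9, 14.7 and 10.2 TPM in B6 controls, 6.67, 6.11 and 7.30 TPM in B6 CRS, 22.3, 9.44 and 12.6 TPM in BALB/c controls and 12.3, 22.2 and 20.8 TPM in BALB/c CRS. All BALB/c CRS libraries exceeded all B6 CRS libraries, by 1.30 on the log2 scale (SE 0.28, 2.46-fold, adjusted p 0.0171, limma). With the striatal score the Npas4 difference was 1.40 (SE 0.46, adjusted p 0.239, limma), with the oligodendrocyte score 1.45 (adjusted p 0.154, limma) and with the astrocyte score 2.14 (adjusted p 0.00428, limma). Without B6 CRS 12 or 13 or BALB/c CRS 13 or 15 the adjusted p was 0.0561 to 0.0685. Its CRS effect was -0.88 in B6 and 0.34 in BALB/c, with a difference of 1.22 between them (SE 0.40, unadjusted p 0.00980, adjusted p 1.00, limma).

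The 12 genes induced by Bdnf or activity gave 0 calls in any comparison. In B6, the fitted log2(TPM + 1) change under CRS was below 0 for 12 of 12, at an unadjusted p under 0.05 for 9 of them (4.82% of all genes), with a median of -0.96. Beside it, 6 of 6 excitatory neuron markers were below 0 (median -0.37) and 8 of 8 striatal markers above 0 (median 1.21), with 0 of either list called. In BALB/c, the fitted change was again below 0 for 12 of 12, at an unadjusted p under 0.05 for 2 of them (3.03% of all genes), with a median of -0.30. It was -0.08 for Fosb, whose mean TPM was 14.5 in controls and 14.6 under CRS. Averaged over strains, the fitted CRS effect was below 0 for 12 of 12, with a median of -0.60. It had an unadjusted p under 0.05 in limma for 10 of them (5.17% of all genes). Beside it, 5 of 6 excitatory neuron markers were below 0 (median -0.23) and 8 of 8 striatal markers above 0 (median 0.45). The difference of effects was above 0 for 11 of the 12 genes (median 0.62). The genes of lowest p in B6 were Egr1 (-0.96, SE 0.15, adjusted p 0.224, limma) and Arc (-1.47, SE 0.34, adjusted p 0.993, limma), a transcription factor and a cytoskeletal regulator of synapses. Between strains under CRS, the fitted difference was above 0 for 12 of 12, with a median of 0.66 and 4 at an unadjusted p under 0.05 (23.8% of all genes). The 6 excitatory neuron markers had the same median there, 0.66, and the 8 striatal markers a median of -3.15. The part of tissue composition in these values was not tested beyond the covariate fits. Once the striatal score was added as a covariate, the change in B6 was -0.98 for Egr1 (adjusted p 0.631, limma) and -1.55 for Arc (adjusted p 0.999, limma). The excitatory neuron score was not fitted for them, and covariate fits of the rest of the 12 are not given here.

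Of the 5 neuropeptides reported to depend on Bdnf, Cort, which encodes cortistatin of cortical interneurons, was lower in BALB/c controls (8.43 to 15.1 TPM) than in B6 controls (17.5 to 25.2 TPM), or -0.94 on the log2 scale (SE 0.23, adjusted p 0.0391, limma). The Cort call held with the striatal score (-1.21, adjusted p 0.0130, limma). It was lost with the oligodendrocyte score (-1.07, adjusted p 0.198, limma), with the astrocyte score (-0.78, adjusted p 0.685, limma), with no filter on low values (0.0913) and with only the control groups in the fit (0.0813). It was also lost without B6 control 3 or 9 or BALB/c control 9 or 10 (0.0663 to 0.140). Tac1, the substance P precursor, was lower in BALB/c under CRS, at 22.0 to 27.6 TPM against 155.7 to 164.6 TPM in B6 CRS (-2.65, SE 0.50, adjusted p 0.00836, limma). Tac1 is also abundant in striatal projection neurons. In B6 controls 2, 3 and 9 it was at 192.0, 62.7 and 27.6 TPM, the order of their striatal scores. The Tac1 difference under CRS was -0.64 with that score as covariate (adjusted p 0.437, limma) and -1.46 with the oligodendrocyte or the astrocyte score (adjusted p 0.364 and 0.528, limma). Npy, Sst and Crh did not pass in any comparison.

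**Figure D5:**
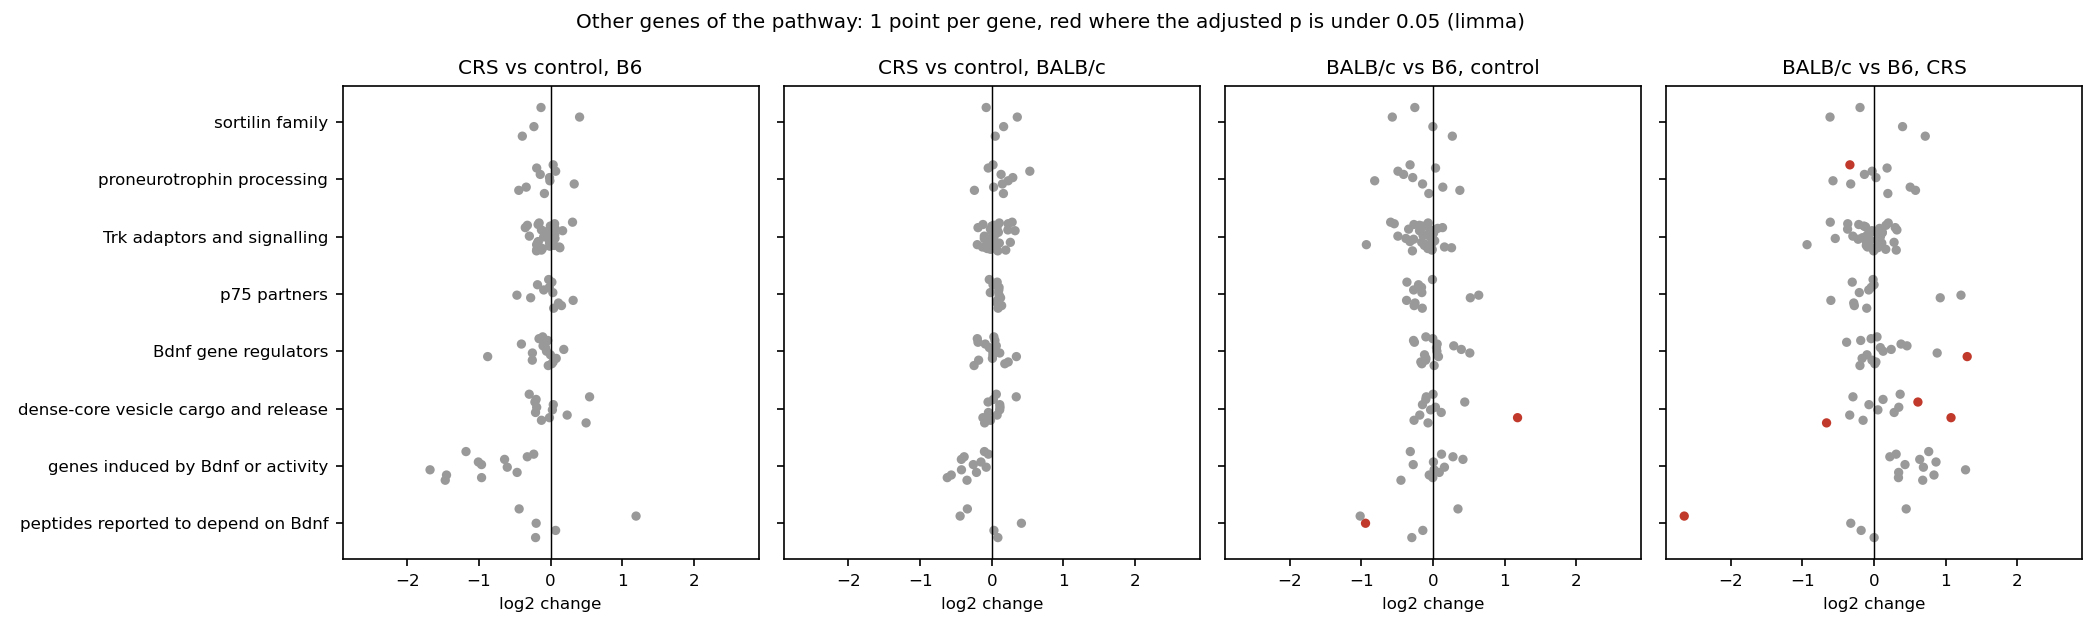
Fitted log2 change (horizontal axis) of every tested gene of the 8 pathway lists (1 line per list, 1 point per gene), red where the adjusted p was under 0.05 in limma. All 12 genes induced by Bdnf or activity lie left of 0 for CRS in B6, and none of those points is red.

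The genes whose levels most resembled those of Bdnf across the 12 libraries, after the mean of each strain was removed, were Ptprk (Pearson r 0.957), Rtn4r (0.952) and Cpeb1 (0.950). For Vgf they were Inpp4b (0.950), Cacnb1 (0.932) and Megf11 (0.927), and for Ntrk2 they were Nherf2 (0.967), Pofut1 (0.965) and Cbl (0.959). These correlations are descriptions, since the points share tissue composition and were picked as the highest of all tested genes.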

How the data were processed

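RNA from 12 mPFC samples was sequenced from stranded mRNA libraries (paired 150 bp reads, about 6 Gb each), per the labels' protocols. Per the submitters' processing notes, cutadapt 2.9, Salmon and GRCm38 were used, and the annotation and Salmon version are not given in the sources used here. The deposited table holds TPM as the authors computed them, recognised from 12 column totals of 1000000. TPM keeps no depth. Columns were matched to samples by strain and animal number. The 147902 entries were summed per gene name. Genes at 1 TPM or more in 3 or more libraries (16423) were fitted in limma 3.58.1 (R 4.3.3) on log2(TPM + 1) with 4 group means, 8 residual degrees of freedom and an intensity trend, at a Benjamini-Hochberg adjusted p of 0.05. Entries were fitted likewise. P-values rest on 1 spread per gene, that between animals within groups, pooled over all 4 groups and moderated by the intensity trend. The fit was tested on simulated data (16015 genes) with independent noise, spread taken from all 12 libraries and changes added to BALB/c CRS alone. Between strains under CRS it called 67% of 97 changes of 1 log2 unit and 7.2% of 97 changes of 0.5. There were also 8 false calls among genes left unchanged. Far fewer genes differed there than were called in the data (1264 of 16423), and the adjusted threshold depends on that number. The rates in the data can therefore differ from these. With those rates unknown, 0 calls do not show that differences of 0.5 log2 units or under are absent. The other comparisons were not simulated, so these rates do not carry over to them and theirs are unknown.

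The 7 genes, the pathway and marker lists and the tests were chosen with earlier results of these data known. Named genes were all 7 members, per list and comparison up to 4 called genes or otherwise up to 2 of lowest p, and the 3 genes most like Bdnf, Vgf and Ntrk2. A marker score is the mean log2(TPM + 1) of a list. Alternatives changed the pseudocount (0.1), the filter (none, or a mean of 5 TPM), the scaling, the covariates, the groups in the fit and the libraries. Promoter letters are from RefSeq (GRCm38.p6), which matched 4 of the 7 genes. Some other genes of the pathway are not reported here.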

Additional observations from a re-analysis of the deposited data

How the results depend on the processing

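The number of the 6 tested genes called was 0 in the CRS comparisons and between strains in controls under every alternative. Between strains under CRS it was 1 with median-of-ratios scaling, 1 with mitochondrial RNAs, Bc1 and Rn18s left out, 2 with only the compared groups in the fit, and 0 in each fit without 1 library. For Bdnf and Ntrk2 entries it was 0 to 1 without 1 library. Median-of-ratios scaling moved the median strain difference of all genes in controls from -0.10 to 0.01. Of the values of the 6 genes in alternatives other than leaving out 1 library, 285 kept their direction and side of the threshold. A further 4 newly passed and 29 changed sign without passing. Changing the filter, fitting only the compared groups or adding a block on shared animal numbers leaves the log2 difference as it is. Direction could therefore not change in those fits. The fits of only the compared groups held the libraries of 2 groups, and 2 of the 4 newly passed values came from them. The cause of the changes of sign was not tested.

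The values that changed sign, on the log2 scale, were these. With the striatal score they were, for CRS in B6, -0.25 for Ntf3 and 0.072 for Sort1, for CRS in BALB/c -0.021 for Sort1, for the difference of effects -0.12 for Bdnf and -0.094 for Sort1, and for the averaged effect 0.025 for Sort1. Between strains they were -0.11 for Bdnf and 0.21 for Ntf3 in controls, and -0.23 for Bdnf, 0.99 for Ntf3 and -0.38 for Sort1 under CRS. With the oligodendrocyte score they were -0.21 for Bdnf and 0.62 for Ntf3 in controls, and 0.88 for Ntf3 and -0.16 for Sort1 under CRS. With the astrocyte score they were -0.012 for Ntf3 (difference of effects), in controls -0.023 for Bdnf, 1.35 for Ntf3, 0.34 for Ntrk2, 0.019 for Ntrk3, 0.026 for Sort1 and 0.034 for Vgf, and under CRS 1.34 for Ntf3 and 0.17 for Ntrk2. Median-of-ratios scaling gave 0.11 for Ntrk3 and 0.069 for Sort1 in controls and -0.023 for Sort1 for CRS in BALB/c. Leaving out mitochondrial RNAs, Bc1 and Rn18s gave 0.083 for Ntrk3 and 0.041 for Sort1 in controls.

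Without 1 library, the values crossed 0 as follows. For CRS in B6 they ran from -0.29 to 0.45 for Ntf3, -0.26 to 0.012 for Sort1, -0.084 to 0.29 for Vgf and -0.16 to 0.40 for Bdnf entry 2. For CRS in BALB/c they ran from -0.27 to 0.13 for Bdnf, -0.035 to 0.27 for Ntrk2, -0.073 to 0.14 for Sort1 and -0.17 to 0.10 for Vgf. For the difference of effects they ran from -0.13 to 0.69 for Ntf3, -0.23 to 0.076 for Ntrk2 and -0.30 to 0.078 for Vgf. For the averaged effect they ran from -0.0014 to 0.14 for Ntrk3, -0.11 to 0.022 for Sort1 and -0.047 to 0.14 for Vgf. Between strains they ran from -0.14 to 0.15 for Ntrk3 and -0.16 to 0.076 for Sort1 in controls, and from -0.46 to 0.28 for Ntf3 under CRS.

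Over all genes, 777 were called between strains in controls, and 437 with a mean of 5 TPM, 282 and 220 with the oligodendrocyte and astrocyte scores and 463 with only the compared groups. Under CRS 1264 were called, and 702 with a mean of 5 TPM, 240, 252 and 251 with the striatal, oligodendrocyte and astrocyte scores and 750 with a replicate block. Without 1 library, 428 (without BALB/c control 10) to 1389 (without B6 control 9) were called in controls, with 497, 504 and 497 without B6 control 2, B6 control 3 and BALB/c control 5. Under CRS 539 (without B6 CRS 12) to 894 (without B6 CRS 14) were called, with 736, 604, 665 and 799 without B6 CRS 13 and BALB/c CRS 12, 13 and 15. The other comparisons called 0 to 7 genes in fits of all libraries. The replicate block on shared animal numbers called 0 of the 6 genes (smallest adjusted p 0.107, Ntrk3, limma) and ended the Cpe call (0.0979). Samples of the same number did not deviate together (correlations -0.24, -0.03 and -0.04 for numbers 9, 12 and 13).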
